A study of Mus musculus with 6 samples.

Results

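Glycolysis and the response to low oxygen were followed through 35 genes in Desmin-positive, CD45-negative regions of mouse cholangiocarcinoma, a cancer of the bile duct. The genes were chosen by name, with earlier results of these data known. They were matched to the target name in the deposited table, and all 35 were found among its 13264 targets. Of these, 22 encode glycolytic enzymes, their isozymes, transporters and regulators, and 13 encode oxygen sensors and targets of hypoxia and stress. The tissue was read with GeoMx digital spatial profiling, in which probes to the mouse whole transcriptome carry tags that are released by light from a chosen region and sequenced.

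The comparison was between 3 regions labelled Cd274F/F Col1A1Cre, called floxed here, and 3 regions labelled Cd274+/+ Col1A1Cre, called control. All 6 came from tumours of the SB murine cholangiocarcinoma line and were described as cancer-associated fibroblasts. Cd274 encodes the immune checkpoint ligand PD-L1. Both genotypes carry the Cre recombinase, whose name places it under the Col1a1 promoter, so recombination is limited to cells that use that promoter and only the floxed allele can be recombined. Neither the animals' age nor the position of each region in its tumour is given in these sources. Which animal each region came from is not labelled either, so regions of one genotype may share an animal, and p-values over regions may then be too small. Floxed regions 1, 2 and 3 are areas 11, 12 and 13 and control regions 1, 2 and 3 are areas 14, 15 and 16 of a single slide, so that genotype and the block of areas cannot be told apart.

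Glycolysis splits glucose into pyruvate in the cytosol, and lactate dehydrogenase turns pyruvate into lactate when oxygen is short or when cells divide fast. When oxygen falls, prolyl hydroxylases stop marking the HIF alpha subunits for degradation, and HIF then binds hypoxia response elements and raises transcription of glycolytic enzymes, of the hydroxylases themselves and of genes for pH control and mitophagy. Tumours of the bile duct are often rich in fibrous stroma, in which oxygen supply is uneven.

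Promoter sequence was looked at first, because most of these genes are known HIF targets and the core letters of a hypoxia response element can be read in it. The core was searched as ACGTG or GCGTG on both strands, overlapping matches included, in the 250 bases before each RefSeq start on GRCm38.p6. The RefSeq promoter table used here covered 31 of the 35 genes, and the promoters of Slc2a3, Epas1, Ndrg1 and Bnip3l were not analysed here. The core stood before at least 1 start of 27 of the 31 genes (87.1%), against 6068 of 10521 targets with an entry (57.7%) and 11226 of 27025 genes in the whole RefSeq table (41.5%). It stood in 18 of 21 glycolytic genes (85.7%) and in 9 of 10 oxygen-sensing and stress genes (90.0%), and the genes without it were Gpi1, Tpi1, Eno2 and Car12. A gene with more starts has more windows in which a match can fall. Counted by single start, the core stood before 35 of 46 starts of the genes (76.1%), against 12679 of 32851 in the whole RefSeq table (38.6%). Starts of the tested targets alone were not counted, and by gene those targets held the core more often than the whole table did. A match is a string of letters and no measure of binding. A few of these windows follow, 5′ to 3′ on the strand of the gene, with the core or its reverse complement in capitals: Ddit4, the gene that passed the test below, from chr10:59951771-59952020 on the minus strand, with cores from bases -187 and -115 counted back from the start; Egln3, from chr12:54203875-54204124 on the minus strand, with a core from base -229; Pgk1, a glycolytic enzyme gene, from chrX:106186850-106187099 on the plus strand, with cores from bases -150 and -131; Tpi1, a glycolytic enzyme gene with no core here, from chr6:124814159-124814408 on the minus strand; and Hif1a, the gene of the sensor's own transcription factor, from chr12:73907617-73907866 on the plus strand, with overlapping cores from bases -135 and -134 and another from base -70.
Ddit4: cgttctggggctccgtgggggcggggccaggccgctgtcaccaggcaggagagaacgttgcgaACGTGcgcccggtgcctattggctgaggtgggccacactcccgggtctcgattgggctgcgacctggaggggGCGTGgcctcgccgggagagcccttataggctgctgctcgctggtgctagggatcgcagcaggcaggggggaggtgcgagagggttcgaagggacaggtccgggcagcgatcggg
Egln3: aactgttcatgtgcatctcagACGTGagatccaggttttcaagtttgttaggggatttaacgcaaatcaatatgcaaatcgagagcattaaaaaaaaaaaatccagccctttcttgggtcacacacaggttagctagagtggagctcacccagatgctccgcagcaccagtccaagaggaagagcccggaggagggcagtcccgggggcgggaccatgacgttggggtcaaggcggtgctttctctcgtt
Pgk1: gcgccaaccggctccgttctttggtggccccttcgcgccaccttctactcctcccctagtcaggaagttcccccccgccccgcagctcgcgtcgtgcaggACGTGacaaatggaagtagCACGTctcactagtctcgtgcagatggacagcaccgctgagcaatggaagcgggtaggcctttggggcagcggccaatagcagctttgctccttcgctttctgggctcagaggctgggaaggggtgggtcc
Tpi1: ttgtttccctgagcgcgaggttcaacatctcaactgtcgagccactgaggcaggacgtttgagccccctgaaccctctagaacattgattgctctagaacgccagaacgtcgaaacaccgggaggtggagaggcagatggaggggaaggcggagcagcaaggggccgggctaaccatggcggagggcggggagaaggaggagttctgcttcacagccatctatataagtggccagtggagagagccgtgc
Hif1a: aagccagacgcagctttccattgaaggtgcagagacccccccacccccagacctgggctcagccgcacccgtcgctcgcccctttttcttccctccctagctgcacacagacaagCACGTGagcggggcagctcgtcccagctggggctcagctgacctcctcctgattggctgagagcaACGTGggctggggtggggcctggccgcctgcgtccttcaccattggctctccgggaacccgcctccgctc

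The deposited signal of the 6 regions summed to between 223253 and 393615 in floxed regions and to between 720786 and 1024180 in control regions. Each region was therefore scaled to a common upper quartile (Q3), and levels below are on this scale unless stated otherwise. The negative probe, which matches no mouse transcript, then read 4.77 to 6.97 in floxed and 4.76 to 5.06 in control regions. The fibroblast markers of the label were present, with Col1a1 at 1411 to 2265 in floxed and 2484 to 3738 in control regions, but so were hepatocyte and epithelial genes, with Alb at 1169 to 5073 in floxed and 1970 to 2970 in control regions. Cd274 itself read 11.1, 17.4 and 29.2 in floxed regions, against 10.6, 14.2 and 13.4 in control regions (adjusted p = 0.610, limma), and where its probe lies relative to the deleted part is not given, so it does not check the labels. In such regions, fewer cells of a type and less RNA per cell cannot be told apart.

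Of the 35 genes, 1 passed the test, the stress gene Ddit4, which fell in floxed regions, and 0 passed in the other direction. Genes were tested with limma on log2(value + 1) with Benjamini-Hochberg adjustment over all 13264 targets, and a call needs an adjusted p under 0.05. Over all targets 0.113% were called lower and 0.588% higher in floxed regions. At an unadjusted p under 0.05, 16 of the 35 genes were lower and 0 higher in floxed regions, where 5.98% of all targets were lower and 6.73% higher. The log2 change, floxed minus control, was negative for 29 of 35 genes (82.9%) and for 47.6% of all targets. In 13 genes every floxed region lay below every control region, as for 9.06% of all targets, and in 1 gene, Hif1a, every floxed region lay above, as for 9.99% of all targets. Most genes of both kinds thus lay below 0 without passing the adjusted test. The median log2 change was -0.60 over the 35 genes, -0.58 over the glycolytic ones and -0.72 over the oxygen-sensing and stress ones, against 0.02 over all targets. These counts and medians describe genes that were listed with earlier results of these data known. The genes are not replicates, and no test over the list was made. All 35 lay above the negative probe in every region, at 1.16 to 275 times it, and Slc2a3, Adm, Ankrd37 and Car12 came under 2 times it somewhere.

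**Figure D1:**
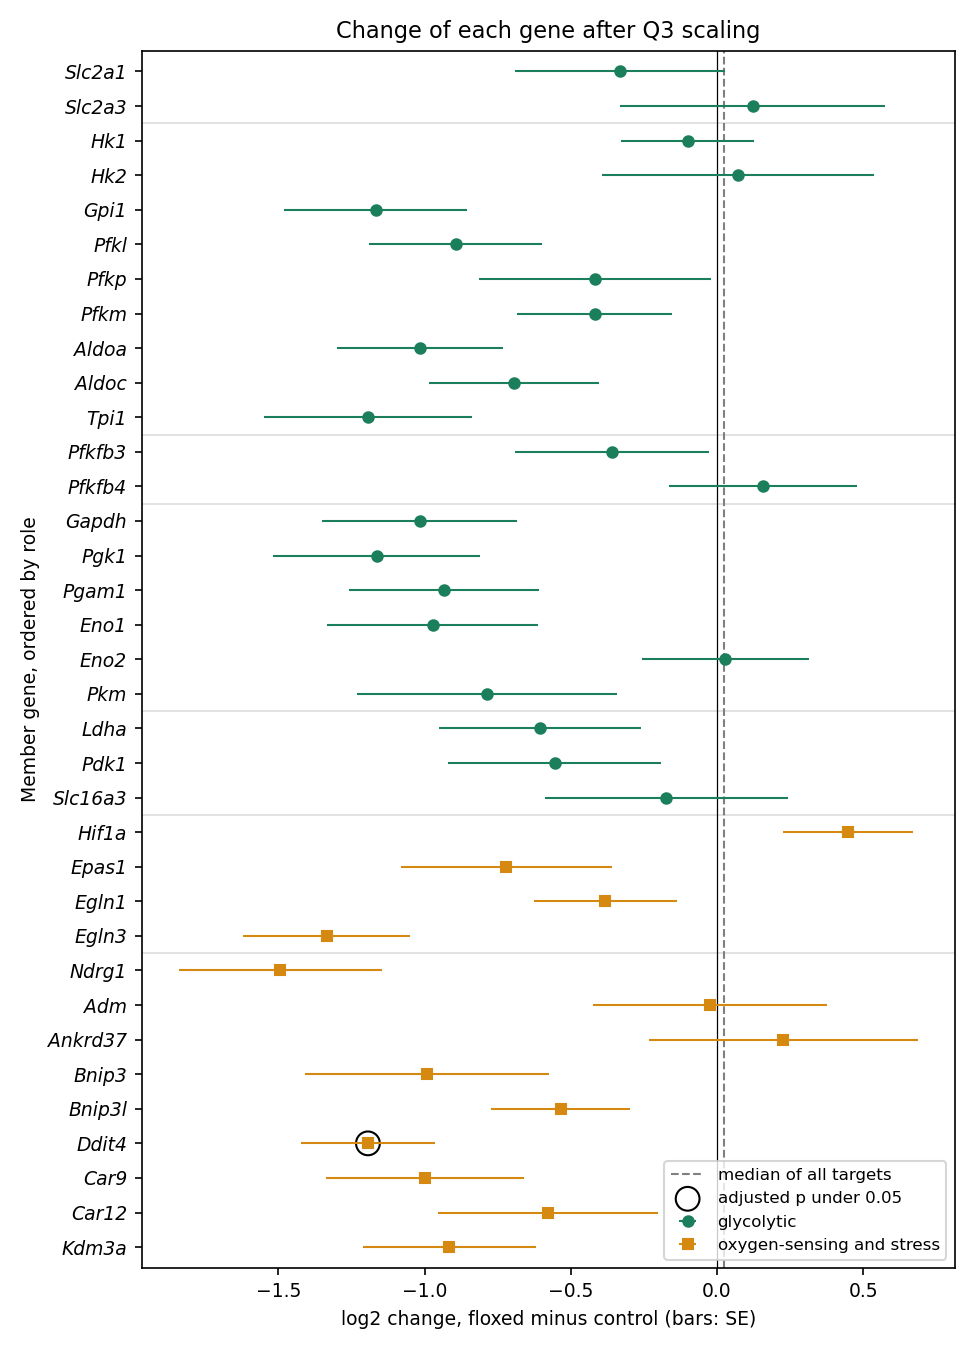
Log2 change of each of the 35 genes, floxed minus control, on the Q3 scale, with bars for the SE from limma (3 regions per group); genes run down the page by role. Ddit4 at -1.19 is the gene that passed the adjusted test, Ndrg1 at -1.49 is farthest below 0, and Hif1a at 0.45 is farthest above it.

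The glucose transporters showed no common direction. Slc2a1, which encodes GLUT1, the main basal glucose carrier, read 16.7, 21.8 and 49.4 in floxed regions, against 36.3, 40.4 and 25.2 in control regions, and its log2 change was -0.33 ± 0.36 (SE; adjusted p = 0.748, limma). Slc2a3, which encodes the high-affinity carrier GLUT3, read 5.55, 17.4 and 15.7 in floxed regions, against 12.1, 12.0 and 8.23 in control regions (log2 change 0.12 ± 0.45, SE). For both transporters the highest and the lowest of the 6 regions were floxed, so the groups overlapped.

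In the first steps of glycolysis, 5 of the 9 genes had every floxed region below every control region, against 9.06% of all targets. The hexokinases were not among the 5. Hexokinases trap glucose in the cell by phosphorylation. Hk1 read 51.8, 39.2 and 55.0 in floxed regions, against 47.6, 57.5 and 50.4 in control regions (log2 change -0.10 ± 0.23, SE). Hk2, the isozyme induced in many tumours, read 11.1, 56.6 and 47.1 in floxed regions, against 30.2, 33.0 and 26.2 in control regions (log2 change 0.07 ± 0.47, SE). The floxed regions lay on both sides of the control regions for Hk2.

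Gpi1, which encodes the isomerase that makes fructose 6-phosphate, read 124, 61.0 and 145 in floxed regions, against 284, 223 and 199 in control regions (log2 change -1.17 ± 0.31, SE; adjusted p = 0.147, limma). The highest floxed region was below the lowest control region, and yet the adjusted p missed the threshold. Pfkl, the liver form of phosphofructokinase, the committed step, read 33.3, 43.5 and 78.5 in floxed regions, against 107, 87.1 and 81.2 in control regions (log2 change -0.89 ± 0.30, SE; adjusted p = 0.242, limma). The platelet form Pfkp, at 14.8, 26.1 and 55.0 in floxed regions against 49.1, 39.3 and 27.2 in control regions, overlapped between groups. So did the muscle form Pfkm, at 27.8, 24.0 and 16.8 in floxed regions against 37.0, 27.9 and 26.7 in control regions. Both had a log2 change of -0.42, with an SE of 0.40 for Pfkp and 0.27 for Pfkm, so that of the phosphofructokinase genes only Pfkl had groups that did not overlap; differences between the isozymes were not tested.

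Aldolase splits the doubly phosphorylated sugar. Aldoa read 194, 179 and 297 in floxed regions, against 582, 399.8 and 369 in control regions (log2 change -1.02 ± 0.28, SE; adjusted p = 0.157, limma). The isozyme Aldoc read 11.1, 19.6 and 20.2 in floxed regions, against 32.5, 27.3 and 22.6 in control regions (log2 change -0.69 ± 0.29, SE). Both aldolase genes had groups that did not overlap. Tpi1, which encodes the enzyme that interconverts the triose phosphates and whose promoter window is the one above without a core, read 83.3, 71.9 and 199.7 in floxed regions, against 326, 213 and 209.8 in control regions (log2 change -1.19 ± 0.35, SE; adjusted p = 0.184, limma). Here floxed region 3 lay close to control regions 2 and 3, while floxed regions 1 and 2 lay well below.

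The bifunctional enzymes that set fructose 2,6-bisphosphate, the activator of phosphofructokinase, overlapped between groups. Pfkfb3 read 13.0, 32.7 and 29.2 in floxed regions, against 37.0, 29.6 and 24.7 in control regions (log2 change -0.36 ± 0.33, SE). Pfkfb4 read 13.0, 17.4 and 15.7 in floxed regions, against 11.3, 19.4 and 11.3 in control regions (log2 change 0.16 ± 0.32, SE).

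The later steps of the pathway, from glyceraldehyde 3-phosphate to pyruvate, had a median log2 change of -0.95 over its 6 genes. Of these genes 0 were called and 4 were lower at an unadjusted p under 0.05, against 5.98% of all targets. Gapdh, which encodes the dehydrogenase of the first of these steps and is often used as a reference gene, read 407, 512 and 861 in floxed regions, against 1393, 1062 and 1007 in control regions (log2 change -1.02 ± 0.33, SE; adjusted p = 0.237, limma). Pgk1, which encodes the first ATP-making enzyme of the pathway, read 59.2, 93.6 and 174 in floxed regions, against 306, 196 and 184 in control regions (log2 change -1.16 ± 0.35, SE; adjusted p = 0.199, limma). For Gapdh and Pgk1 all floxed regions were below all control regions, and floxed region 3 was the nearest to them.

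Pgam1, phosphoglycerate mutase, read 176, 168 and 370.2 in floxed regions, against 535, 352 and 407 in control regions (log2 change -0.93 ± 0.32, SE). Eno1, the enolase of most tissues, read 194, 235 and 504 in floxed regions, against 757, 525 and 440.1 in control regions (log2 change -0.97 ± 0.36, SE). Floxed region 3 passed the lowest control region in both genes, which is the only overlap between the groups there. The neuronal enolase Eno2 read 18.5, 30.5 and 19.1 in floxed regions, against 25.7, 23.9 and 16.5 in control regions (log2 change 0.03 ± 0.29, SE). Pkm, pyruvate kinase, read 199.9, 435 and 817 in floxed regions, against 1022, 649 and 552 in control regions (log2 change -0.79 ± 0.44, SE; adjusted p = 0.484, limma). Several of these enzymes have processed or near-identical copies in the mouse genome, and the RefSeq gene table lists Eno1b as a gene of its own with Eno1 among its synonyms, so signal of Eno1 is uncertain to that extent.

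At the fate of pyruvate the 3 genes all overlapped between groups. Ldha, which makes lactate, read 85.1, 115 and 223 in floxed regions, against 282, 175 and 158 in control regions (log2 change -0.60 ± 0.35, SE; adjusted p = 0.490, limma). Pdk1 encodes a kinase that inhibits the pyruvate dehydrogenase complex. It read 16.7, 52.3 and 26.9 in floxed regions, against 57.4, 40.4 and 33.4 in control regions (log2 change -0.56 ± 0.36, SE). The lactate exporter gene Slc16a3, which encodes MCT4, read 13.0, 26.1 and 52.7 in floxed regions, against 26.4, 42.1 and 23.6 in control regions (log2 change -0.17 ± 0.42, SE). For Ldha and Slc16a3, floxed region 1 was the lowest of the 6 regions, and floxed region 3 exceeded control regions 2 and 3 for Ldha and all control regions for Slc16a3.

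**Figure D2:**
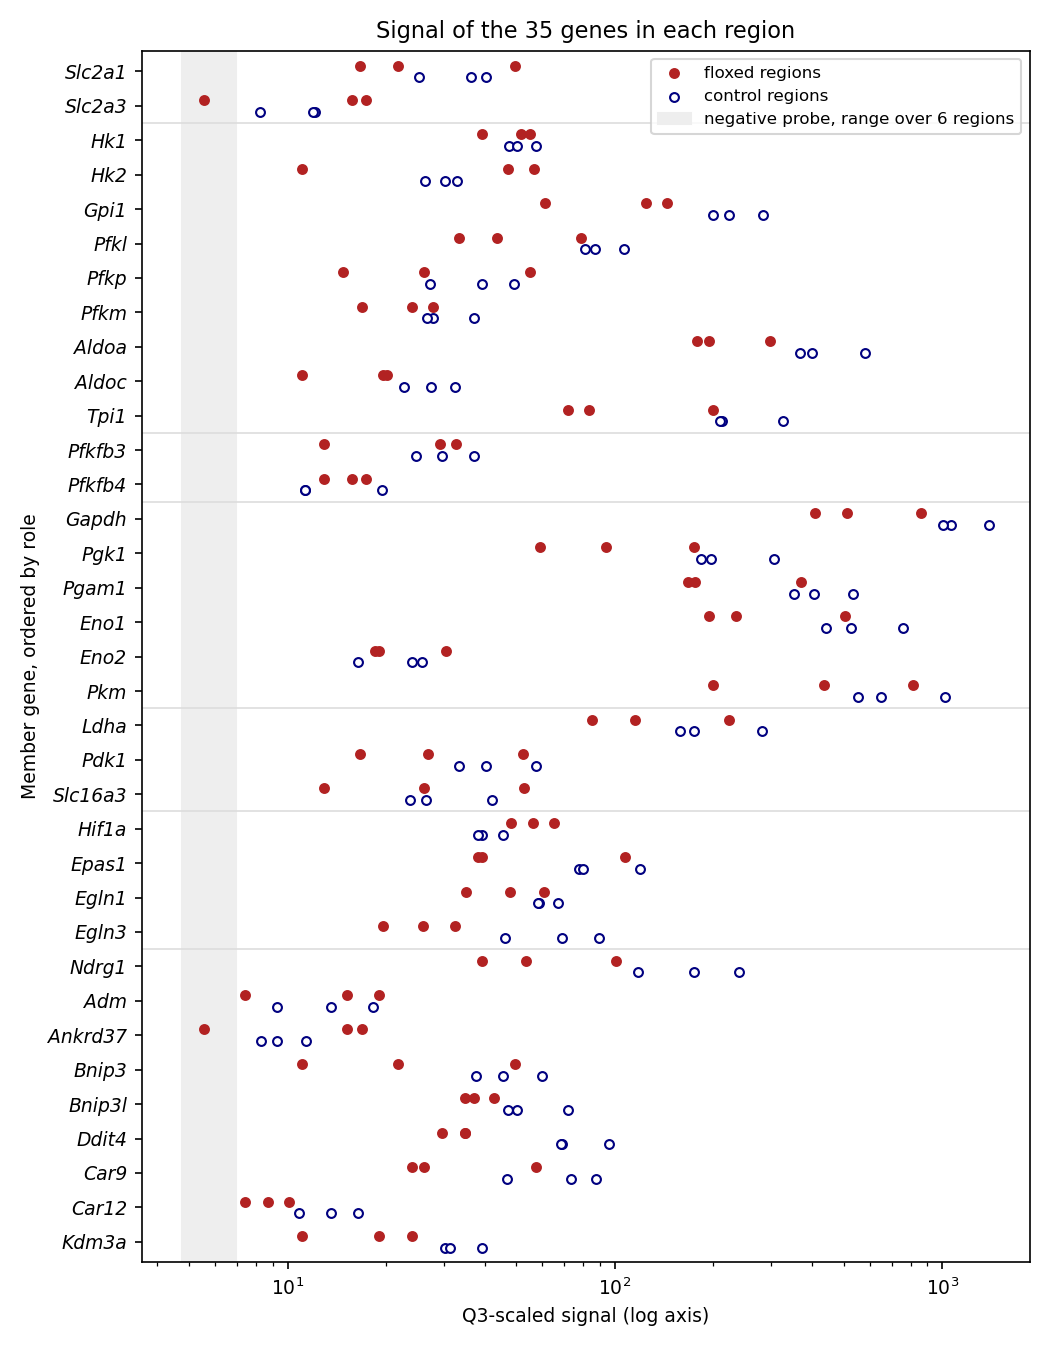
Q3-scaled signal (log axis) of the 35 genes in each of the 6 regions, floxed as filled red and control as open blue circles, with genes grouped by role and the range of the negative probe as a grey band. For Ddit4 the floxed regions sit at 29.6 to 34.8 and the control regions at 68.3 to 96.1, while for Slc2a1 the regions of both genotypes are mixed.

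Among the oxygen sensors, the genes of the HIF alpha subunits had log2 changes on opposite sides of 0. Hif1a read 48.1, 65.3 and 56.1 in floxed regions, against 39.3, 45.6 and 38.0 in control regions, so the lowest floxed region was above the highest control region. Its log2 change was 0.45 ± 0.22 (SE; adjusted p = 0.432, limma), and it was -0.84 on the values as deposited, where the median target stood at -1.22. HIF-1 alpha is known to be set mainly by protein stability, which these probes do not read. Epas1, which encodes HIF-2 alpha and is abundant in endothelium, read 107, 39.2 and 38.1 in floxed regions, against 77.8, 119 and 79.7 in control regions (log2 change -0.72 ± 0.36, SE; adjusted p = 0.433, limma). Without floxed region 1 the log2 change of Epas1 was -1.21 with an adjusted p = 0.00731 in limma, a fit in which 487 of all targets were called lower and 536 higher. The endothelial markers summed to 400, 174 and 176 in floxed regions, against 165, 466 and 364 in control regions, with 0 of 10 tested called and 0 at an unadjusted p under 0.05. None of the endothelial markers was at 0, but 5 of the 10 came under 2 times the negative probe somewhere and 2 under the probe itself. Among floxed regions, region 1 was the highest for both Epas1 and that sum, whereas control region 1 had the lowest sum of all 6 regions and Epas1 above floxed regions 2 and 3. The part of endothelium in the Epas1 values was not tested.

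The prolyl hydroxylases mark HIF alpha for degradation when oxygen is present. Egln1, which encodes PHD2, the main one, read 35.2, 47.9 and 60.6 in floxed regions, against 67.2, 58.7 and 58.1 in control regions (log2 change -0.38 ± 0.24, SE). Egln3, which encodes the hypoxia-induced PHD3, read 25.9, 19.6 and 32.5 in floxed regions, against 89.1, 68.9 and 46.3 in control regions. Its groups did not overlap, and its log2 change of -1.33 ± 0.29 (SE) missed the threshold at an adjusted p = 0.0627 in limma. With robust variance estimates in limma its adjusted p was 0.0496.

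Ddit4, which encodes REDD1, an inhibitor of mTORC1 induced by hypoxia, glucocorticoids and energy stress, was the gene that passed the test. It read 29.6, 34.8 and 34.8 in floxed regions, against 68.7, 68.3 and 96.1 in control regions. The floxed regions were close together and all below the control regions, with means of 33.1 ± 3.0 in floxed and 77.7 ± 15.9 in control regions (SD, n = 3 each), or 5.88 and 16.0 times the negative probe. The log2 change was -1.19 ± 0.23 (SE) with an adjusted p = 0.0386 in limma, and it was lower in 3 of 3 floxed regions. The call was kept without floxed region 1 and was lost without any of the other regions, at an adjusted p in limma of 0.0529 without floxed region 2, 0.119 without floxed region 3 and 0.154, 0.173 and 0.223 without control regions 1, 2 and 3. In the 6 fits with a region left out the log2 change stayed between -1.27 and -1.03.

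The other genes known as hypoxia targets had a wider spread. Ndrg1, a stress gene widely used as a hypoxia marker, read 53.7, 39.2 and 101 in floxed regions, against 239, 175 and 117 in control regions (log2 change -1.49 ± 0.35, SE; adjusted p = 0.0896, limma). The groups did not overlap, and floxed region 3 came closest to the control regions. Car9, which encodes the membrane carbonic anhydrase IX that handles acid made by glycolysis, read 24.1, 26.1 and 57.2 in floxed regions, against 87.6, 73.5 and 46.8 in control regions (log2 change -1.0 ± 0.34, SE; adjusted p = 0.253, limma). The related Car12 lay near the negative probe, at 7.40, 8.71 and 10.1 in floxed regions, against 13.6, 10.8 and 16.5 in control regions (log2 change -0.58 ± 0.38, SE). Car12 did not overlap between groups, but its floxed regions averaged 1.56 times the negative probe.

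Bnip3 and Bnip3l encode receptors that send mitochondria to autophagy. Bnip3 read 11.1, 21.8 and 49.4 in floxed regions, against 59.7, 45.6 and 37.5 in control regions (log2 change -0.99 ± 0.42, SE). Bnip3l read 42.6, 34.8 and 37.0 in floxed regions, against 71.8, 47.3 and 50.4 in control regions (log2 change -0.53 ± 0.24, SE; adjusted p = 0.375, limma). Only Bnip3l of this pair had groups that did not overlap. Kdm3a, a histone H3K9 demethylase induced by HIF, read 11.1, 24.0 and 19.1 in floxed regions, against 39.3, 30.2 and 31.4 in control regions (log2 change -0.92 ± 0.30, SE; adjusted p = 0.229, limma). Kdm3a too had groups that did not overlap. Adm, the vasodilator peptide adrenomedullin, read 7.40, 15.2 and 19.1 in floxed regions, against 13.6, 18.2 and 9.25 in control regions (log2 change -0.02 ± 0.40, SE). Ankrd37, a small hypoxia-induced ankyrin repeat gene, read 5.55, 15.2 and 16.8 in floxed regions, against 8.31, 11.4 and 9.25 in control regions (log2 change 0.23 ± 0.46, SE). Adm and Ankrd37 were close to the negative probe and overlapped.

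The contrast between glycolytic genes and oxygen-sensing and stress genes was read region by region, as the median over genes of the log2 value minus the control mean. The glycolytic median was -1.21, -0.55 and -0.16 in floxed regions 1, 2 and 3, against 0.29, -0.06 and -0.27 in control regions 1, 2 and 3. Floxed region 3 therefore lay above control region 3, and the groups overlapped for glycolysis. The oxygen-sensing and stress median was -0.78, -0.66 and -0.38 in floxed regions, against 0.13, 0.04 and -0.14 in control regions, and the groups did not overlap. The glycolytic minus the stress median was -0.43, 0.11 and 0.22 in floxed regions, against 0.15, -0.10 and -0.13 in control regions, which overlap. Of the 22 glycolytic genes, 18, 15 and 9 were below the lowest control region in floxed regions 1, 2 and 3, and of the 13 others 11, 10 and 7. Those counts are 81.8%, 68.2% and 40.9% of the glycolytic genes and 84.6%, 76.9% and 53.8% of the others, against 38.4%, 31.5% and 28.5% of all targets. The share was smallest in floxed region 3 for both kinds of gene and for all targets. Summed signal of the glycolytic genes was 1769, 2278 and 4072 in floxed regions, against 5997, 4275 and 3902 in control regions. Summed signal of the others was 409, 392 and 532 in floxed regions, against 876, 772 and 636 in control regions. Across all targets the median was -0.06, 0.14 and 0.08 in floxed regions, against -0.01, 0.02 and 0.00 in control regions.

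Single regions carried much of the spread. Floxed region 1 was the lowest floxed region for 25 of the 35 genes and floxed region 3 the highest for 23. Among control regions, control region 1 was the highest for 24 genes. Differences between regions of one genotype have no replicate here and were not tested.

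**Figure D3:**
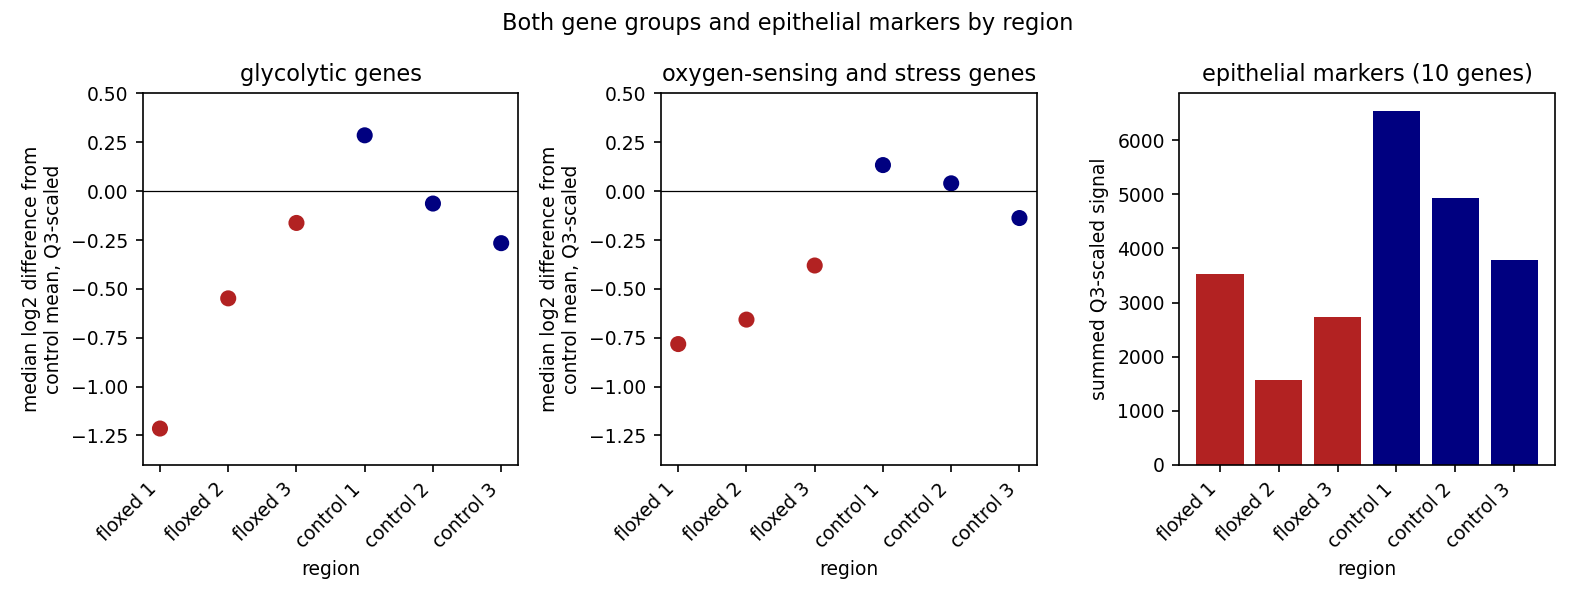
Median over genes of the log2 Q3-scaled value minus the control mean in each region, for glycolytic genes (left) and oxygen-sensing and stress genes (middle), and the summed signal of 10 epithelial markers (right), with floxed regions in red left of control regions in blue. The glycolytic medians run from -1.21 in floxed region 1 to -0.16 in floxed region 3, which lies above control region 3 at -0.27, while the stress medians of the groups do not overlap.

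Summed markers of several other cell types also differed in level between the groups, while those of hepatocytes overlapped. For the counts below, 5.98% of all targets were lower and 6.73% higher at an unadjusted p under 0.05. Of all targets 0.113% were called lower and 0.588% higher, and 47.6% had a negative log2 change. Every floxed region lay below every control region for 9.06% of all targets. The 10 markers of cholangiocytes and tumour epithelium summed to 3530, 1574 and 2737 in floxed regions, against 6538, 4933 and 3790 in control regions, with 0 of 10 called and 6 lower at an unadjusted p under 0.05. Of them, 3 had every floxed region below every control region. None was at 0, but 3 came under 2 times the negative probe somewhere and 1 under the probe itself. Krt8, an epithelial keratin, read 409, 483 and 744 in floxed regions, against 1049, 767 and 756 in control regions, without overlap. Spp1, which encodes osteopontin and is the most abundant of the list, read 2332, 385 and 849 in floxed regions, against 3794, 2809 and 1888 in control regions, and overlapped through floxed region 1. The log2 change was positive for 3 of the 10 epithelial markers, up to 0.74. The summed epithelial markers had groups that did not overlap, as did the summed stress genes, whereas the summed glycolytic genes overlapped through floxed region 3. The 12 fibroblast and stellate cell markers summed to 4812, 3632 and 5193 in floxed regions, against 6174, 8605 and 7702 in control regions, with 0 called and 3 lower at an unadjusted p under 0.05. This sum too was below every control region in each floxed region. The log2 change was positive for 4 of the 12 fibroblast and stellate cell markers, up to 0.43. The 6 B and plasma cell markers tested summed to 4102, 814 and 436 in floxed regions, against 52.1, 70.6 and 75.6 in control regions, with 3 called higher. Floxed region 1, the lowest for most glycolytic genes, was by far the highest here. The 6 T and NK cell markers tested summed to 64.8, 142 and 140.2 in floxed regions, against 43.8, 50.7 and 56.0 in control regions, with 0 called, 3 higher at an unadjusted p under 0.05 and a positive log2 change in all 6. The 11 hepatocyte markers tested summed to 10720, 3471 and 9625 in floxed regions, against 5766, 4763 and 5877 in control regions. These sums overlapped, as floxed region 2 lay below every control region. Of the 11, 0 were called, 2 were higher at an unadjusted p under 0.05 and 8 had a positive log2 change. Of the 6 neutrophil markers tested, S100a8 and S100a9 were called lower. Those calls were lost without floxed region 3 or any control region, at an adjusted p of 0.0769 to 0.216 in limma. The 6 markers summed to 70.3, 98.0 and 83.0 in floxed regions, against 131, 142 and 168 in control regions. S100a9 alone read 16.7, 26.1 and 23.6 in floxed regions, against 57.4, 69.5 and 70.95 in control regions. The log2 change was positive for 2 of the 6 neutrophil markers, up to 0.39. All 6 T and NK cell markers came under 2 times the negative probe somewhere, as did 5 of 6 B and plasma cell and 5 of 6 neutrophil markers. Under the probe itself somewhere were 1 T and NK cell, 1 B and plasma cell and 2 neutrophil markers. The part of all these cell types in the glycolytic and stress values was not tested.

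Brighter targets as a whole lay lower in floxed regions, and the genes were set against targets of like signal, in ranges chosen after the data were seen. Among 451 targets with a mean Q3-scaled signal from 100 to 200, the median log2 change was -0.24 and 29.3% had all floxed regions below all control regions. The 5 genes in that range, Gpi1, Tpi1, Pgk1, Ldha and Ndrg1, had a median of -1.17, and 4 of them had all floxed regions below. The genes of this range thus lay further below 0 than the typical target of their brightness, whose 10th percentile was -0.82. Among 256 targets of at least 200 the median log2 change was -0.22 and the 10th percentile -0.95, against a median of -0.97 over Aldoa, Gapdh, Pgam1, Eno1 and Pkm. From 50 to 100 the median was -0.19 over 1353 targets and -0.81 over 6 of the genes, Ddit4 among them. From 25 to 50 it was -0.05 over 3462 targets and -0.42 over 12 of the genes. Below 25 it was 0.13 over 7742 targets and 0.03 over 7 of the genes. The 10th percentile of targets was -0.70 from 50 to 100, -0.55 from 25 to 50 and -0.42 below 25. The median of the genes was under it only from 50 to 100 among these ranges. All floxed regions lay below for 2 of 5 genes of at least 200, against 25% of the targets in that range. The counts were 2 of 6 from 50 to 100, 3 of 12 from 25 to 50 and 2 of 7 below 25. The shares of targets there were 19.8%, 11.3% and 4.49%.

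**Figure D4:**
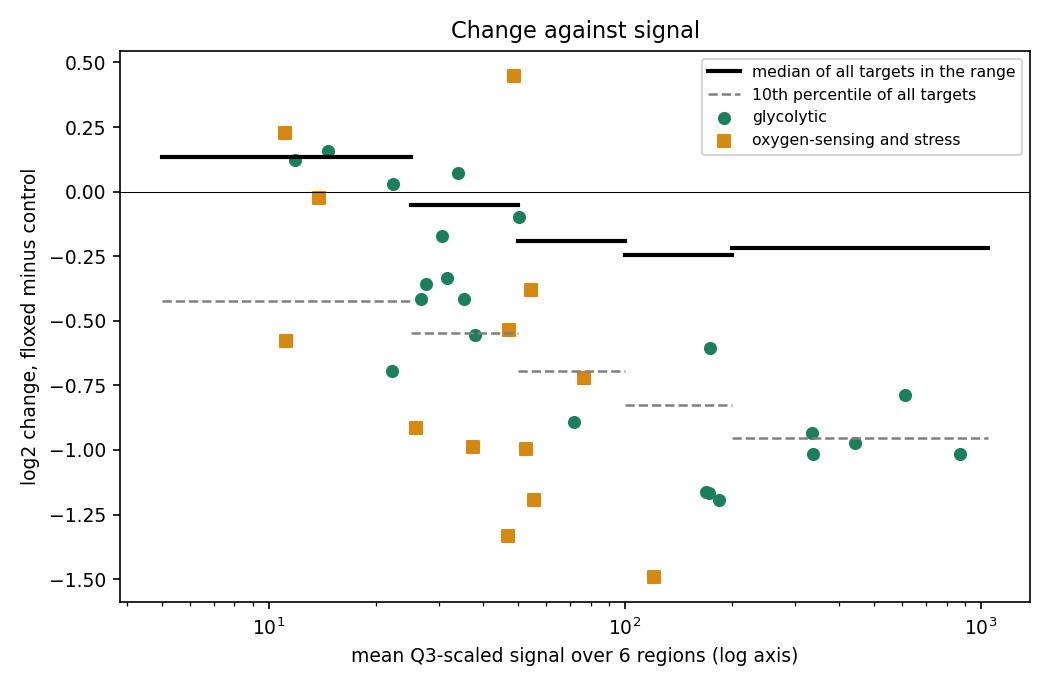
Log2 change, floxed minus control, against mean Q3-scaled signal over the 6 regions (log axis), with the 35 genes as points, the median of all targets in each signal range as a solid line and their 10th percentile as a dashed line. The median of all targets lies between -0.24 and 0.13, while the glycolytic points between 100 and 200 include Gpi1, Pgk1 and Tpi1 at -1.17, -1.16 and -1.19.

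Further genes of the same pathways, from lists drawn up with earlier results of these data known, were mostly uncalled. For comparison, 5.98% of all targets were lower and 6.73% higher at an unadjusted p under 0.05, and 0.113% were called lower and 0.588% higher. Of 13 tested other glycolytic genes, 0 were called in either direction, 3 were higher and 0 lower at an unadjusted p under 0.05, and the median log2 change was 0.00. Hk3, the hexokinase of myeloid cells, read 20.4, 21.8 and 30.3 in floxed regions, against 6.80, 7.97 and 10.8 in control regions (log2 change 1.40 ± 0.32, SE; adjusted p = 0.0792, limma), and its groups did not overlap. The macrophage markers summed to 946, 616 and 895 in floxed regions, against 469, 675 and 803 in control regions, and 1 of 11 tested was called higher. Their part in the Hk3 values was not tested. Of 14 tested genes of pyruvate entry and lactate transport 0 were called (median -0.16), with 2 lower and 2 higher at an unadjusted p under 0.05. Dld, the dihydrolipoyl dehydrogenase of the pyruvate dehydrogenase complex, read 64.8, 69.7 and 43.7 in floxed regions, against 31.7, 37.0 and 30.8 in control regions (adjusted p = 0.200, limma). Pdk3, a kinase of that complex, read 11.1, 13.1 and 12.3 in floxed regions, against 18.1, 26.8 and 27.2 in control regions. Dld and Pdk3 lay on opposite sides of 0, at log2 changes of 0.80 and -0.91. Of 6 tested genes of gluconeogenesis 0 were called (median -0.28), with 1 lower at an unadjusted p under 0.05.

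Of 12 tested other components of the HIF pathway 0 were called and 2 were lower at an unadjusted p under 0.05, against 5.98% of all targets. Their median log2 change was -0.29. In 6 of the genes every floxed region lay below every control region and in 2 every floxed region lay above, against 9.06% and 9.99% of all targets. The 2 above, named after their values were seen, were Hif1an, which encodes the asparaginyl hydroxylase that blocks coactivator binding, and Cul2, a scaffold of the ligase that marks HIF alpha, at log2 changes of 0.41 and 0.34. Arnt, which encodes the beta subunit that pairs with the HIF alpha subunits, read 20.4, 28.3 and 23.6 in floxed regions, against 30.2, 43.3 and 33.9 in control regions (log2 change -0.55 ± 0.25, SE; adjusted p = 0.379, limma). Cited2, a HIF-induced protein that competes with HIF for its coactivators, read 35.2, 15.2 and 26.9 in floxed regions, against 40.8, 36.4 and 42.7 in control regions. The coactivator genes Ep300 and Crebbp had log2 changes of -0.44 and -0.36. In all 4 genes the groups did not overlap, and none passed the adjusted test.

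At an unadjusted p under 0.05, 10 of 40 tested other genes known as hypoxia-induced were lower and 1 higher, against 5.98% and 6.73% of all targets. Their median log2 change was -0.22, and 1 was called lower and 0 higher, against 0.113% and 0.588% of all targets. That gene, Errfi1, which encodes a feedback inhibitor of the EGF receptor, read 57.4, 39.2 and 58.3 in floxed regions, against 137, 134 and 118 in control regions (log2 change -1.33 ± 0.23, SE; adjusted p = 0.0236, limma). That call was lost without floxed region 3 or any control region, at an adjusted p of 0.0863 to 0.173 in limma. Vegfa, the HIF-induced angiogenic factor, read 74.0, 28.3 and 85.3 in floxed regions, against 261, 144 and 112 in control regions (log2 change -1.50 ± 0.40, SE; adjusted p = 0.147, limma). Mt1, a metallothionein, and Fam162a had log2 changes of -1.30 and -1.37 and missed the threshold. The groups did not overlap for Errfi1, Vegfa and Mt1.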

How the data were processed

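Regions were grouped by the genotype in the labels and numbered in accession order. Regions were collected after staining for Desmin and CD45, per the series' design text. The deposited file holds a signal per target and region; how the authors counted tags, chose targets and scaled the signal is not stated in these sources. In each region 99.97 to 99.98% of values fell on whole multiples of one unit step, to within 0.01 step, but what a step stands for is unknown, so no count model was used. Each region was scaled to the geometric mean of the regions' upper quartiles (percentile 75), and floxed minus control regions were tested on log2(value + 1) with limma 3.58.1 in R 4.3.3 (lmFit, eBayes with a mean-variance trend), with Benjamini-Hochberg adjustment over all 13264 targets and calls at an adjusted p under 0.05. The filter, a mean above the negative probe, removed no target. An exact two-sided permutation test of 3 against 3 cannot go below 0.1. The fit was tested on simulated data. Alternatives covered scaling, background, pseudocount, filter, variance model, region weights, threshold and left-out regions. All 6 columns of values were used, and 0 were left out.

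The 35 members and all lists were chosen with earlier results of these data known. Every member is described, and from each other pathway list up to 4 genes with the smallest unadjusted p could be named, from each marker list the 2 most abundant; S100a8 and S100a9 also head their list. Cd274 is given as the gene of the genotype labels, which its values do not check, and Col1a1 as a check of the fibroblast label. Promoter windows came from RefSeq (GRCm38.p6), and genes were matched by symbol, 35 of 35.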

Additional observations from a re-analysis of the deposited data

How the results depend on the processing

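The count of genes called higher was 0 under all 19 alternatives. The count called lower, 1 here, was 33 on the values as deposited, 0 with quantile normalization, 0 with scaling to the negative probe, 0 without a variance trend, 2 with robust variance, 5 with region weights and 3 at an adjusted p under 0.1, and 0 to 5 with a region left out, the 5 being without floxed region 1 and the 0 without each of the others. Both sets of 5 were Gpi1, Epas1, Egln3, Ndrg1 and Ddit4, in fits that called 365 targets higher and 330 lower with region weights and 536 higher and 487 lower without floxed region 1. Epas1 then stood at -1.07 with region weights (adjusted p = 0.0172, limma). As deposited, the median of all targets stood at -1.22, and with scaling to the negative probe at -0.17; as deposited, limma called 21 targets higher and 9905 lower, against 78 and 15 on the Q3 scale. The glycolytic median of -0.58 became -1.87 as deposited and -0.87 to -0.28 with a region left out. The oxygen-sensing and stress median of -0.72 became -2.01 as deposited, -1.14 with the negative probe subtracted, -0.50 with region weights and -0.81 to -0.59 with a region left out. Their difference of 0.14 became 0.51 with the negative probe subtracted and -0.19 to 0.45 with a region left out, so its sign was not kept.

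Ddit4 kept its direction throughout and its call in 11 of 19 alternatives. Dropping the filter and loosening the threshold to 0.1 reused the main fit, so neither could lose the call. The call kept as deposited came from a fit that called most targets lower. Limma's adjusted p for Ddit4 was 0.0559 with quantile normalization, 0.0886 with scaling to the negative probe and 0.153 without a variance trend, over a range of 4.69e-06 to 0.223. The filter, variance model and threshold alternatives leave the log2 changes as they are and could not turn a direction. The direction held under all 19 alternatives for 23 genes and turned under at least 1 for 12. As deposited, it turned for Slc2a3 (-1.08), Hk2 (-1.20), Pfkfb4 (-1.07), Eno2 (-1.23), Hif1a (-0.84) and Ankrd37 (-0.97). It turned with quantile normalization for Pfkfb4 (-0.028) and Eno2 (-0.037), with scaling to the negative probe for Slc2a3 (-0.072), Hk2 (-0.13), Pfkfb4 (-0.034) and Eno2 (-0.17), and with the negative probe subtracted for Slc2a3 (-0.074). It turned with region weights for Slc2a1 (0.16), Pfkp (0.16), Eno2 (-0.056), Slc16a3 (0.33) and Adm (0.25). With a region left out, the range crossed 0 for Slc2a3 (-0.15 to 0.60), Hk1 (-0.19 to 0.046), Hk2 (-0.35 to 0.78), Pfkp (-0.90 to 0.018), Pfkfb3 (-0.60 to 0.038), Eno2 (-0.20 to 0.15), Slc16a3 (-0.66 to 0.31), Adm (-0.29 to 0.35) and Ankrd37 (-0.037 to 0.69). It moved by over 1.5 times on both sides without crossing 0 for Pkm (-1.27 to -0.26), Ldha (-0.99 to -0.30), Pdk1 (-0.98 to -0.18), Bnip3 (-1.53 to -0.50) and Slc2a1 (-0.78 to -0.020), with the value nearest 0 without floxed region 1 in all 5, and for Pfkfb4 (0.036 to 0.40) and Epas1 (-1.21 to -0.47). It did so toward 0 alone for Pfkm (to -0.22), Aldoc (to -0.43), Egln1 (to -0.18) and Bnip3l (to -0.35). The causes were not tested. No paired analysis was possible because the labels link no floxed region to any control region.

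In the deposited values Ddit4 stood at 16, 16 and 31 steps in floxed regions, against 91, 120 and 187 steps in control regions, so the floxed values are the coarser ones. The lowest of the 35 genes stood at 3, 4 and 9 steps in floxed regions, against 11, 19 and 16 steps in control regions.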
